A study of Macaca mulatta with 16 samples.

Results

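The broad domains described here were 1164 stretches of open chromatin in rhesus macaque T cells. Overlapping peaks of the 16 libraries (by 1 bp or more) were joined into 55449 merged regions. A region was taken as a broad domain when every library had a peak in it and its merged width was at least 6000 bp. Of the 24333 regions open in all 16 libraries, 4.78% met the width, and these domains were 2.10% of all merged regions. Another 58 regions of that width lacked a peak in at least 1 library and were not included. The domains were thus chosen by measured values, their merged width and their presence in all libraries, which describe them and were not tested.

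ATAC-seq maps open chromatin with a transposase that cuts and tags DNA not wrapped in nucleosomes. Most open sites are short, as at a single promoter or enhancer. Long runs of open chromatin in lymphocytes are known around genes that define the cell type, where several enhancers and a promoter can lie side by side. Naive T cells have not met their antigen, while memory T cells have and can respond faster. CD4+ T cells mostly help other immune cells, and CD8+ T cells can kill infected ones. 2-hydroxypropyl-beta-cyclodextrin is a ring of sugars that binds cholesterol and can draw it out of cell membranes.

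Naive and memory CD4+ and CD8+ T cells were sorted from peripheral blood of 2 rhesus macaques, giving 4 populations. Each population was sampled before and after 2-hydroxypropyl-beta-cyclodextrin, which was injected under the skin as a 15% (w/w) solution at 1 ml per kg per day for up to 120 days. Each library was made from 10000 sorted cells with 11 to 15 cycles of amplification. There were 8 groups of 2 libraries, 1 per animal. No untreated animal was sampled at both times among these libraries, so time and treatment cannot be told apart. The named populations were not checked against marker genes, because gene positions on the rheMac10 build were not used here, and domains are named by position. p-values measure the spread between libraries of 2 animals. Sequencing depth was unknown.

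The lists held 36307 to 42034 peaks, covering 51.4 to 66.3 Mb. The 2 shortest lists, with 36307 and 37966 peaks, were both naive CD8+ libraries of animal 1, and they covered 51.4 and 52.0 Mb. File names number animal 2 differently in each population while the titles give it 1 name, and the titles were followed. Counts of covered bases by state and by lineage are given with and without both naive CD8+ libraries of animal 1. Not every other count is given in this way.

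The domains were 6003 to 68033 bp wide, with a median of 7676 bp and quartiles of 6644 and 9601 bp. Together they spanned 10.8 Mb, which was 16.6% of the bases in regions open in all libraries. Of their bases, 51.7% were covered by a peak in all 16 libraries, against 55.0% for all regions open throughout. Bases covered in just 1 library made up 3.93%. The common core of a domain, meaning the bases covered in every library, had a median of 4335 bp and was usually split, with a median of 2 separate stretches. It reached 6000 bp in 235 domains. In chr6:54648068-54654510 no base was covered in all 16 libraries, although each library had a peak there.

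**Figure D1:**
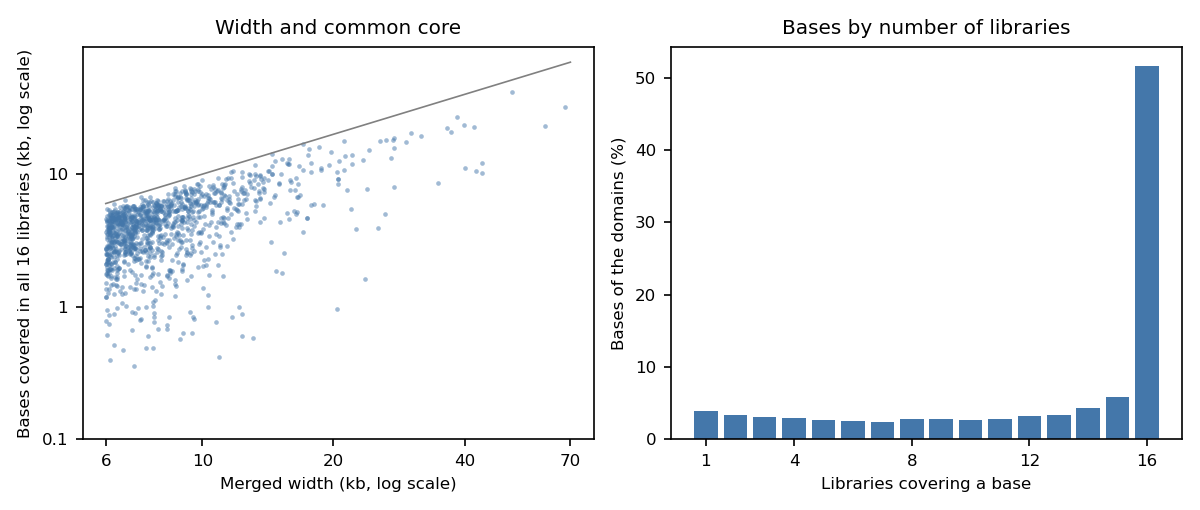
Left, merged width of each domain against the bases covered in all 16 libraries, both in kb on log axes, with a grey line where the whole width would be covered; chr6:54648068-54654510, with a core of 0, is not drawn. Right, the percentage of domain bases covered by 1 to 16 libraries, with the bar for 16 libraries at 51.7% and the bar for 1 library at 3.93%.

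A domain was seldom a single peak in all 16 libraries at once, although individual libraries had a single peak in 291 to 510 domains. In 53 domains (4.55%) every library had 1 peak across the domain, against 76.0% of all regions open throughout. In 233 domains no library had a single peak, and the other 878 were 1 peak in some libraries and several in others. One unbroken peak of at least 6000 bp was present in all 16 libraries in 79 domains, in some libraries in 786 and in none in 299. Summed over its peaks, a library covered at least 6000 bp of the domain in all 16 cases for 295 domains, in some for 729 and in none for 140. The merged width of the last set came from adding peaks of different libraries. The summits of the peaks of highest area score lay within 500 bp of each other over the 16 libraries in 429 domains (36.9%), against 83.1% of regions open throughout.

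Core sizes just inside and just outside the width threshold interleaved. The narrowest members were chr16:20457042-20463044, chr9:5026650-5032654 and chr1:191672321-191678332, at 6003, 6005 and 6012 bp, with cores of 4623, 1510 and 2761 bp. The widest non-members were 5998, 5993 and 5991 bp wide, with cores of 2632, 3123 and 3327 bp.

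The widest domain, chr3:157229397-157297429, spanned 68033 bp. A library covered 43985 to 67347 bp of it (median 60146 bp) with 5 to 24 peaks. Its core was 32385 bp in 24 stretches, of which the longest was 3818 bp. The second widest, chr3:157309816-157371164 (61349 bp), lay close by and had the most peaks of all domains, 259 over the 16 libraries. In contrast, chr19:40539883-40591177 (51295 bp) held the largest core, 41881 bp, with 1 stretch of 28181 bp, and was covered over 44375 to 51295 bp by 1 to 7 peaks. Single peaks ran across that domain in 3 libraries, all memory CD8+. The next widest, chr7:161379451-161423381 and chr11:119813578-119857467, were 43931 and 43890 bp wide and varied far more. Their covered bases ranged from 13551 to 42363 bp and from 11285 to 43695 bp.

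Domains often lay near one another. Another domain was within 50 kb of 511 of them (43.9%), and within 1 kb of 10.1%. These shares are not given for all regions open throughout. The upper quartile of the number of other domains within 50 kb was 1 for domains and 0 for all regions open throughout. The median number of other merged regions within 50 kb was 10, against 6 for all regions open throughout. These counts move with width, since a wider region also reaches further. Chained at 50 kb, 653 domains stood alone, 42 sets held 3 domains, 17 held 4, 8 held 5, 3 held 6, 3 held 7 and the remaining sets held 2. The longest set, chr3:157157742-157429618, had 7 domains that filled 97.1% of 272 kb. With the peaks of all 16 libraries joined, it was 1 nearly continuous block cut by gaps of 64 to 3645 bp. Bases covered in every library made up 44.9% of its merged bases. Single libraries covered 180 to 257 kb of the block with 26 to 79 peaks. Memory CD8+ libraries covered 219, 254, 257 and 250 kb of that block, memory CD4+ libraries 245, 230, 227 and 229 kb, naive CD8+ libraries 204, 231, 201 and 228 kb, and naive CD4+ libraries 221, 194, 180 and 195 kb. The other sets of 7, chr10:15185156-15358545 and chr19:1762879-1928930, were looser, with domains over 49.7% and 38.0% of their span. By chromosome, domains made up 6.78% of the regions open throughout on chromosome 16 (102 of 1505), the highest share, and 2.31% on chromosome 8 (19 of 824), the lowest. On chromosome X the share was 2.46% (16 of 650).

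Width and strength were different properties of these domains. Each peak carries the authors' area score, which sums signal along the peak and so moves with width, and a −log10 p at its summit. Both were turned into a percentile within the peak's own list, a domain taking its highest peak, and the median over 16 libraries was used. By area the median domain stood at the 95.6th percentile, against 67.9 for all regions open throughout. By summit −log10 p it stood at 81.4, against 67.9, and by area per base at 75.8, against 67.8. At or above the 90th percentile were 796 domains by area, 278 by summit and 153 by area per base. Below the 50th percentile were 13 domains by area, 66 by summit and 10.1% of domains by area per base. The very wide chr11:119813578-119857467 was at 83.2 by area, 48.2 by summit and 36.1 by area per base, whereas chr19:13413029-13452832 (39804 bp) was at 99.98, 94.8 and 93.7. These percentiles are descriptions, because width set the members. A domain's highest peak was also taken from more peaks, a median of 32 over the 16 libraries against 16 for all regions open throughout. How far this raised the percentiles was not tested.

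Across libraries, memory cells covered more of the domains than naive cells. The median share of a domain covered by peaks ran from 70.7% in naive CD8+ cells of animal 1 after treatment to 90.1% in memory CD8+ cells of animal 2 before it. Covered bases summed over domains were 8.63 ± 0.430 Mb in memory (SD, n = 8) and 7.99 ± 0.537 Mb in naive libraries (SD, n = 8), and memory was higher in 8 of 8 pairs matched for lineage, time and animal. In CD8+ they were 8.13 ± 0.709 Mb and in CD4+ 8.49 ± 0.362 Mb (SD, n = 8 each), with CD8+ higher in 3 of 8 pairs. After treatment they were 8.20 ± 0.532 Mb and before it 8.43 ± 0.626 Mb (SD, n = 8 each), with 1 of 8 pairs higher after, memory CD8+ of animal 1. Memory CD8+ before treatment differed most between animals, at 74.97% and 90.1% median coverage. The whole lists moved in the same way, covering 61.7 ± 3.23 Mb in memory and 57.8 ± 4.19 Mb in naive (SD, n = 8 each), and the domains held 13.5% to 14.4% of the covered bases of each list.

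Fewer and longer peaks went with broader coverage. Domains held 2504 ± 189 peaks in memory and 2695 ± 135 in naive libraries (SD, n = 8 each), and the memory library had more in 1 of 8 pairs. A single peak covered 510 and 507 domains in the 2 memory CD8+ libraries of highest coverage, and 291 in the naive CD8+ library of lowest coverage. Longer lists and deeper libraries can also join peaks, and their part in these totals was not tested.

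**Figure D2:**
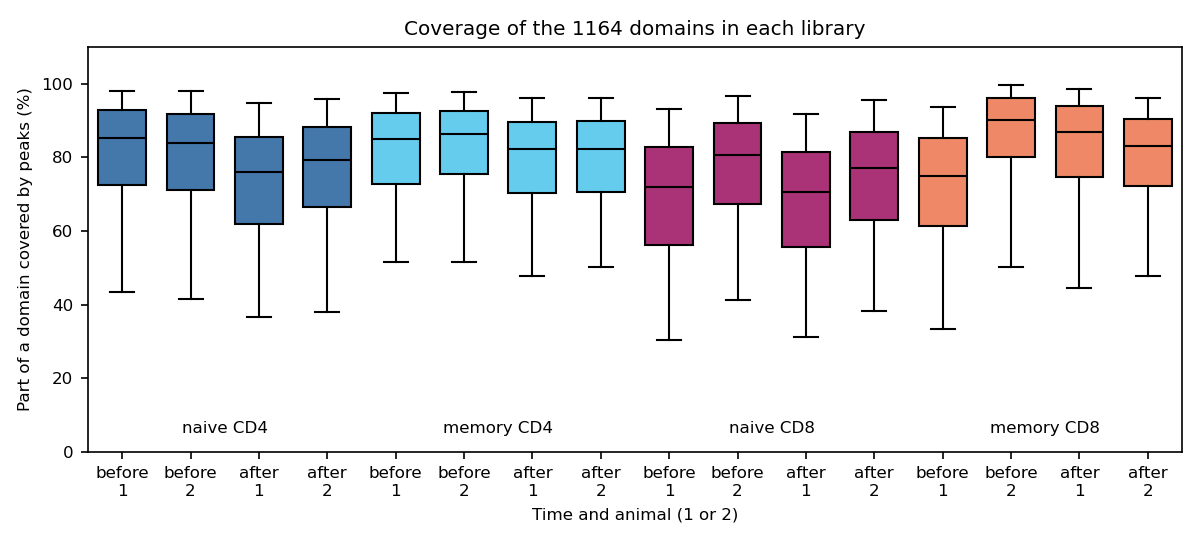
Percentage of each domain covered by peaks, for the 1164 domains in each of the 16 libraries, ordered by population, time and animal. Boxes show the median and quartiles and whiskers the 5th to 95th percentile of domains; medians run from 70.7% in naive CD8+ after treatment, animal 1, to 90.1% in memory CD8+ before treatment, animal 2.

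Memory against naive was the comparison in which most domains differed in width. Covered bases were compared on the log2 scale with limma over all 24333 regions open throughout, with Benjamini-Hochberg adjustment and a threshold of 0.05. Of the 1164 domains 376 differed (32.3%), against 18% of all regions tested. Memory cells had the broader domain in 304 (26.1%, against 13.6% of all regions) and naive cells in 72 (6.19%, against 4.35%). The median log2 difference was 0.08 over the domains and 0.06 over all regions. The share called was 29.0% among regions from 4000 to under 6000 bp. It was 33.1%, 30.6% and 32.7% among domains under 8000 bp, from 8000 to under 12000 bp and of at least 12000 bp, so it was near that of the next narrower class. A merged region also grows where libraries differ, so this share is not independent of the width rule. Among the 295 domains covered over at least 6000 bp in every library it was 21.4%, among the 729 with some such libraries 35.4%, and among the 140 with none 39.3%.

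The direction depended in part on scale. When each library was centred on its own median covered bases, 378 domains differed (32.5%, against 18.3% of all regions in the same fit), 226 broader in memory and 152 broader in naive cells. Without both naive CD8+ libraries of animal 1, 327 differed (28.1%, against 13.2%), 244 broader in memory. In fits of single animals 143 domains were called in animal 1 (12.3%, against 5.44%) and 322 in animal 2 (27.7%, against 10.7%). Those fits held terms for state, lineage, time and state by lineage in place of group means. Covered bases of the 8 memory libraries all lay above those of the 8 naive libraries in 90 domains and below in 13, together 8.85% of domains against 3.51% of regions open throughout.

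The difference was large at chr15:10580627-10588362. Memory libraries covered 6270 to 7528 bp of it (median 7028 bp) and naive libraries 844 to 3853 bp (median 1841 bp). The groups did not overlap, and the log2 difference was 2.09 ± 0.18 (SE), 4.25-fold (limma, adjusted p = 4.3e-05). At chr19:4257819-4264087 memory libraries covered 2741 to 4905 bp (median 3975 bp) and naive libraries 891 to 1276 bp (median 1086 bp). That domain had the smallest adjusted p of those named in this comparison, 2.9e-07 by limma, with a log2 difference of 1.89 ± 0.06 (SE). Every naive library had 1 short peak there and every memory library had 2 peaks.

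At chr1:94809279-94834535, 25257 bp wide, the memory libraries covered 21058 to 24363 bp (median 23182 bp). Naive libraries covered 4223 to 13662 bp (median 5756 bp), and the highest, naive CD4+ before treatment of animal 1, was well apart from the other naive libraries. The log2 difference was 1.85 ± 0.19 (SE; limma, adjusted p = 0.00010). Apart from that library, naive libraries held separate shorter peaks, while in memory cells peaks covered almost the whole width. Another 3 domains were covered over more bases in every memory library than in any naive library: chr19:18032943-18043875 (log2 difference 1.93), chr3:59689226-59696199 (1.76) and chr9:15694956-15704487 (1.76). Of these, chr3:59689226-59696199 was not called in animal 1 alone (limma, adjusted p = 0.0511).

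In chr19:37979815-37985958 and chr14:11680236-11692588 the groups overlapped. In the first, memory CD8+ libraries covered 864, 4815, 4035 and 5376 bp, memory CD4+ libraries 1037, 757, 785 and 1729 bp, and naive libraries 430 to 772 bp (median 540 bp). Its log2 difference of 1.68 ± 0.31 (SE; limma, adjusted p = 0.0041) thus came mostly from 3 memory CD8+ libraries. Neither of these domains was called in animal 1 alone.

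Fewer domains were broader in naive cells, and the clearest was chr14:8966751-8974800. Naive libraries covered 7511 to 7905 bp of it (median 7635 bp), nearly the whole 8050 bp, while memory libraries covered 2680 to 5100 bp (median 3631 bp). The log2 difference was −1.04 ± 0.07 (SE; limma, adjusted p = 5.9e-06). All 8 naive libraries had 1 peak across the domain, and all 8 memory libraries had a gap in its middle. The groups also stood apart at chr2:3822567-3828831, with 5225 to 5994 bp in naive (median 5599 bp) and 586 to 4431 bp in memory libraries (median 3221 bp), and at chr16:375016-382240, with 4674 to 7196 bp (median 6569 bp) and 1908 to 4030 bp (median 3198 bp). In animal 1 alone chr2:3822567-3828831 was not called (limma, adjusted p = 0.0975).

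Among the domains broader in naive cells, 5 of the 8 of largest difference overlapped between groups. At chr2:29313501-29319551, which had the largest difference, naive CD4+ libraries covered 3310, 4416, 2236 and 4037 bp and naive CD8+ libraries 858, 5693, 861 and 5382 bp. Both low naive CD8+ values were from animal 1. The 8 memory libraries covered 611 to 924 bp (median 809 bp), and the log2 difference was −1.76 ± 0.43 (SE; limma, adjusted p = 0.017). This call was lost in lists of equal length (adjusted p = 0.074) and with peaks of area score of at least 400 (adjusted p = 0.081). The overlapping domains chr16:60875119-60885890 and chr16:60898891-60906575, which are neighbours, lost their call in 7 and 13 of the 16 fits that left out 1 library. The others were chr11:46833923-46841103 (log2 difference −1.24) and chr16:77687224-77693543 (−0.92), of which the second was not called with peaks of area score of at least 400.

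**Figure D3:**
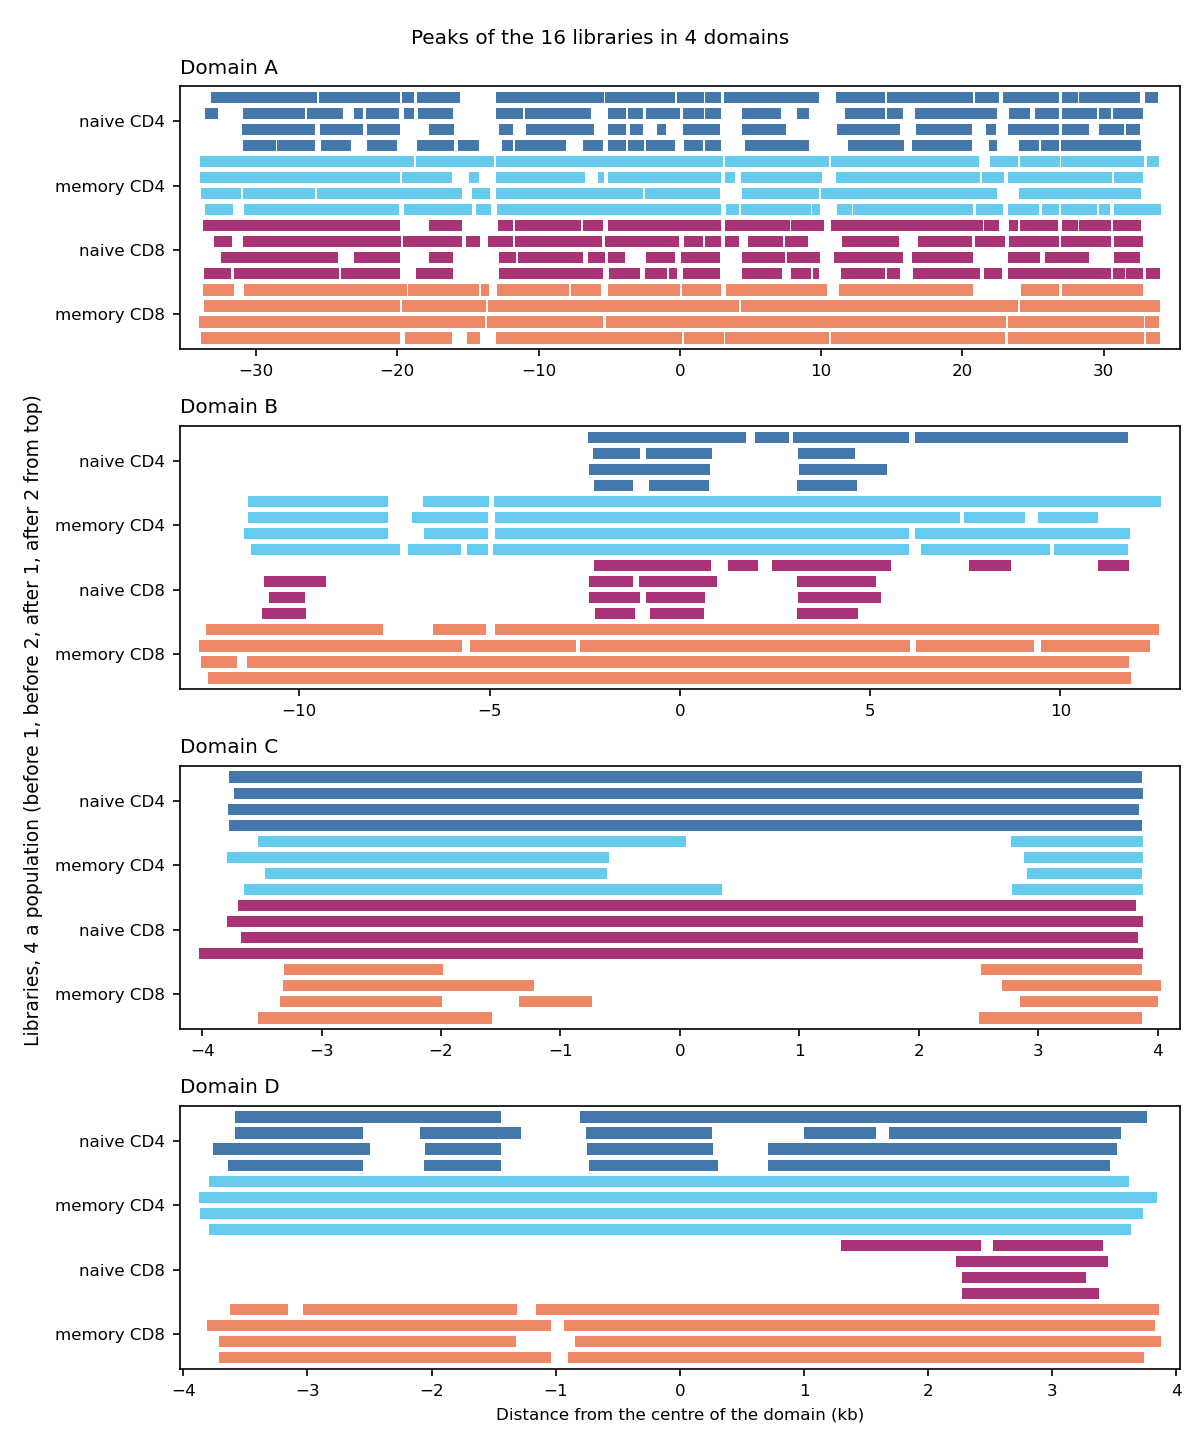
Peaks of the 16 libraries (bars) in 4 domains, with distance from the domain's centre in kb on the horizontal axis and 4 libraries per population in the order before 1, before 2, after 1, after 2 from the top. A is the widest domain, chr3:157229397-157297429; B is chr1:94809279-94834535, covered over 21058 to 24363 bp in memory and 4223 to 13662 bp in naive libraries; C is chr14:8966751-8974800, 1 peak in each naive library and at least 2 in each memory library; D is chr16:36954141-36961884, short in naive CD8+ cells alone.

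CD8+ and CD4+ cells differed in covered bases in 161 domains (limma, 13.8%), against 9.21% of all regions tested. CD8+ cells had the broader domain in 46 (3.95%, against 2.33% of all regions) and CD4+ cells in the rest (9.88%, against 6.88%). The median log2 difference was −0.05 over the domains and −0.04 over all regions. Centred on the library median, 184 domains differed (15.8%, against 9.94% of all regions in the same fit), 84 broader in CD8+ and 100 broader in CD4+ cells. Without both naive CD8+ libraries of animal 1, 9.71% of domains were called, against 5.30% of all regions, 44 of them broader in CD8+ cells. Leaving out memory CD8+ before treatment of animal 2 gave 255 calls (21.9%, against 13.6%). Animal 1 alone gave 86 calls (7.39%, against 3.31%), and animal 2 alone called 10.1% of domains, against 3.93%. Covered bases of the lineages did not overlap in 7 domains with CD8+ above and 29 with CD8+ below, 3.09% of domains against 1.504% of regions open throughout.

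The largest lineage difference of all domains called was at chr10:41671035-41677591. CD4+ libraries covered 492 to 1142 bp of it (median 778 bp) and CD8+ libraries 2938 to 6557 bp (median 5186 bp), with no overlap. The log2 difference was 2.62 ± 0.09 (SE), 6.16-fold (limma, adjusted p = 2.6e-07). Memory CD8+ libraries covered 6011, 6557, 6540 and 6234 bp and naive CD8+ libraries 2938, 3870, 3072 and 4361 bp, so within the CD8+ lineage the domain was also broader in memory cells.

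At chr13:19069980-19076811 the lineages were far apart in both states. CD8+ libraries covered 4720 to 6624 bp (median 5614 bp) and CD4+ libraries 1399 to 1788 bp (median 1604 bp), a log2 difference of 1.81 ± 0.07 (SE; limma, adjusted p = 2.6e-07). Naive CD8+ libraries covered 5394, 5650, 5010 and 5695 bp and memory CD8+ libraries 4720, 6624, 6039 and 5577 bp, which overlap each other. Other domains broader in CD8+ cells without overlap of the lineages were chr6:146333189-146340878 (log2 difference 1.63), chr16:49109623-49119661 (1.42), chr1:199774088-199780844 (1.15) and chr2:164625866-164631890 (0.96). The last was not called in animal 1 alone. In chr20:68642847-68649755 and chr1:209497631-209507638 (log2 differences 1.13 and 0.97) the lineages overlapped.

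CD4+ cells had the broader domain at chr12:121896644-121904430. CD4+ libraries covered 5145 to 7689 bp (median 6954 bp) and CD8+ libraries 1124 to 3029 bp (median 1837 bp). The log2 difference was −1.82 ± 0.20 (SE; limma, adjusted p = 0.00036). The 23622 bp of chr4:55389608-55413229 were covered over 17102 to 23471 bp in CD4+ libraries (median 21430 bp) and 3024 to 12974 bp in CD8+ libraries (median 8560 bp), a log2 difference of −1.51 ± 0.24 (SE; limma, adjusted p = 0.0033). In both, every CD4+ library covered more bases than any CD8+ library.

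Another 4 domains were lower in every CD8+ library than in any CD4+ library: chr9:103181526-103192688 (log2 difference −1.55), chr16:75124240-75134550 (−1.45), chr9:75897621-75904839 (−1.37) and chr14:13118749-13128215 (−1.28). The last lost its call without both naive CD8+ libraries of animal 1 (adjusted p = 0.070) and in animal 1 alone (adjusted p = 0.058). Lineages overlapped at chr6:54648068-54654510 (−1.47) and chr18:74124074-74134372 (−1.27), and the second lost its call in 10 of the 16 fits that left out 1 library and in animal 1 alone.

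State and lineage calls fell on the same domain in 90 cases, which was 23.9% of the state calls and 55.9% of the lineage calls. Over all 24333 regions tested the shares were 21.5% and 42.1%, and the difference between domains and all regions was not tested. Of these, 31 were broader in memory and in CD8+ cells, 34 in memory and CD4+, 22 in naive and CD4+, and 3 in naive and CD8+. Neither comparison called 717 domains. Neighbouring domains no more than 50 kb apart formed 319 pairs. In 47 pairs both domains were called for state, 45 of them in 1 direction. Another 91 pairs had 1 domain called for state and 181 had neither. For lineage both were called in 15 pairs, 14 in 1 direction, 1 domain in 45 pairs and neither in 259. Whether these counts exceed what the shares called would give was not tested. Neighbours share their surroundings, so they are not independent.

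**Figure D4:**
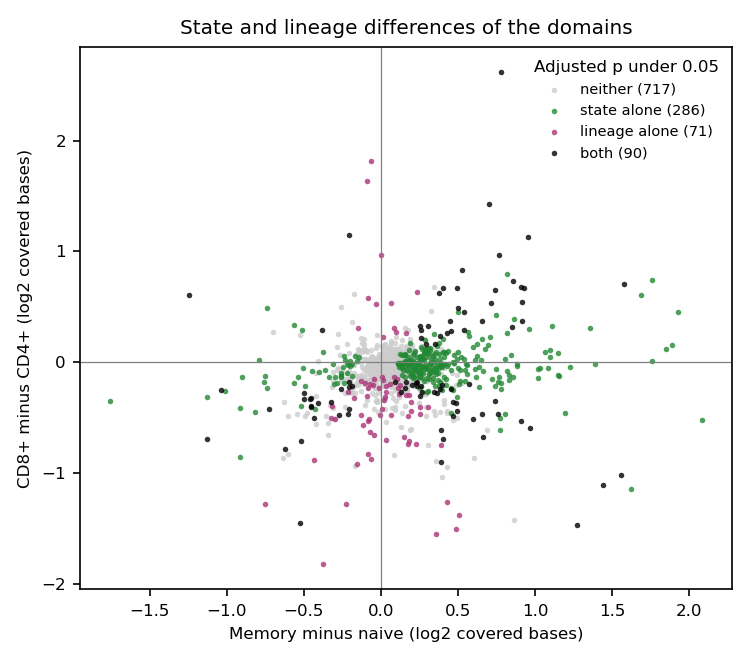
Each point is 1 of the 1164 domains, with the memory minus naive difference in log2 covered bases across and the CD8+ minus CD4+ difference up. Colours give the limma calls at adjusted p under 0.05: 286 domains for state alone, 71 for lineage alone, 90 for both and 717 for neither; chr10:41671035-41677591 is the highest point, at 2.62.

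The state difference was tested within each lineage and then between them. In CD4+ cells 100 domains differed by state (limma, 8.59%), against 3.15% of all regions, 88 broader in memory (7.56%, against 2.46%) and 12 in naive cells (1.03%, against 0.686%). In CD8+ cells 335 differed (28.8%), against 15.4%, of which 281 were broader in memory (24.1%, against 11.8%) and 54 in naive cells (4.64%, against 3.65%). The difference between lineages itself passed in 14 domains (1.20%), against 0.481% of all regions. Unadjusted p by limma was under 0.05 in 169 domains and in 2411 of all 24333 regions. In all 14 the memory minus naive difference was larger in CD8+ cells, against 0.312% of all regions in that direction and 0.168% in the other. The share of all regions in fits that left out 1 library is not given for this comparison. The count of 14 was sensitive to single libraries. It was 41 without memory CD8+ before treatment of animal 1, 26 without that of animal 2, and 8 or 9 without any 1 of 6 CD4+ libraries: naive CD4+ before or after treatment of either animal and memory CD4+ after treatment of either animal. Animal 1 alone gave 0 calls and animal 2 alone 6 (0.515%, against 0.111% of all regions). Centred on the library median there were 23 (1.98%, against 0.892%), of which 14 were larger and 9 smaller in CD8+ cells.

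The domain chr16:36954141-36961884 led this comparison. Naive CD8+ libraries covered 2011, 1226, 1002 and 1108 bp of it, and memory CD8+ libraries 7213, 7539, 7113 and 7318 bp. In the CD4+ lineage naive libraries covered 6715, 5310, 5719 and 5498 bp and memory libraries 7416, 7713, 7594 and 7432 bp. It was thus broad in all populations except naive CD8+ cells, in all 4 libraries of that population. The log2 state difference was 2.50 in CD8+ and 0.38 in CD4+ cells, and the difference between them was 2.12 ± 0.18 (SE; limma, adjusted p = 0.0011).

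At chr6:54648068-54654510, the domain with no common base, naive CD8+ libraries were again the short ones, at 1376, 902, 606 and 918 bp. Memory CD8+ libraries covered 5140, 4759, 4583 and 3803 bp, naive CD4+ libraries 6119, 5423, 4825 and 4680 bp and memory CD4+ libraries 6083, 6266, 6274 and 5780 bp. The difference between lineages was 2.10 ± 0.21 on the log2 scale (SE; limma, adjusted p = 0.0027). The domain chr3:11548590-11554745 was likewise short in naive CD8+ cells, with 2113, 2453, 2392 and 2361 bp in naive CD8+ libraries and 4263 to 5519 bp in the 8 memory libraries (difference 0.95 ± 0.11, adjusted p = 0.0063 by limma).

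Memory CD8+ cells were the ones that stood apart in other domains of this set. At chr1:209497631-209507638 they covered 7555, 9458, 9998 and 7943 bp, while naive CD8+ libraries covered 4419, 2433, 3606 and 2314 bp. CD4+ libraries covered 2112 to 3360 bp there (median 2559 bp). At chr2:20016267-20023139 memory CD8+ libraries covered 5026, 6283, 5974 and 5969 bp, and the other 12 libraries 3363 to 4174 bp. At chr1:132293372-132299515 they covered 4900, 6144, 5794 and 5572 bp, and the other 12 libraries at most 3463 bp.

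At chr6:146333189-146340878 the lineages moved in opposite directions. Memory CD4+ libraries covered 1165, 1110, 2095 and 1113 bp and naive CD4+ libraries 2415, 2423, 2439 and 2413 bp, a log2 difference of −0.88 (limma, adjusted p = 0.013). Memory CD8+ libraries covered 5724, 7651, 7690 and 7430 bp and naive CD8+ libraries 4265, 3975, 4648 and 4535 bp, a log2 difference of 0.70 (limma, adjusted p = 0.014). The difference between lineages lost its call without both naive CD8+ libraries of animal 1 (adjusted p = 0.055). The calls at chr19:18055180-18061291, chr1:132293372-132299515 and chr1:209497631-209507638 were each lost in 12 or 13 of the 16 fits that left out 1 library. No domain passed in the other direction. The smallest p there was at chr16:75071550-75085365, with a log2 difference of −0.62 ± 0.13 (SE; limma, adjusted p = 0.088, and 0.029 with the replicate block).

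**Figure D5:**
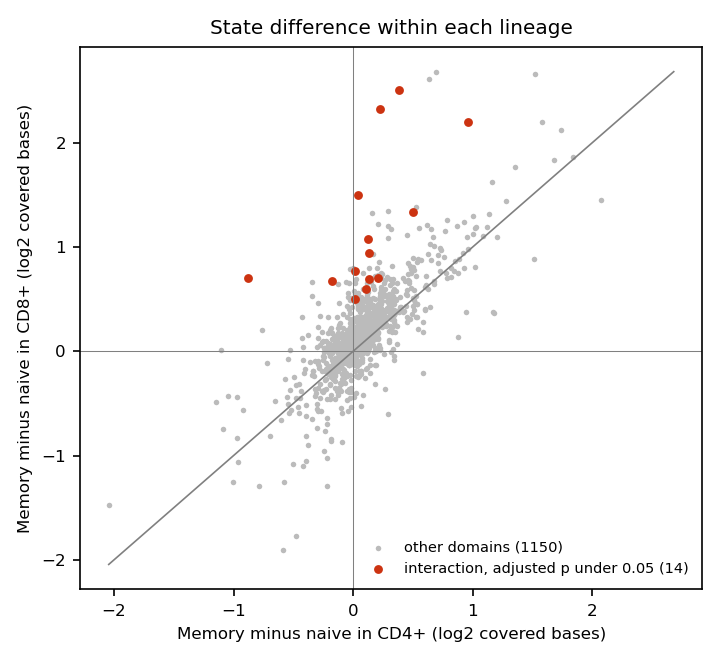
Memory minus naive difference in log2 covered bases of each domain in CD4+ cells (across) and CD8+ cells (up), with a grey line of equal differences. The 14 domains in red passed the test of the difference between lineages by limma and all lie above that line; the highest, chr16:36954141-36961884, is at 0.38 and 2.50.

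Covered bases before and after treatment were not told apart in any domain. By limma 0 of 1164 domains passed, and 0% of all 24333 regions did. Unadjusted p by limma was under 0.05 in 96 of the 1164 domains and in 1725 of the 24333 regions. The median log2 difference was −0.04 over the domains and −0.03 over all regions. Within naive CD4+, memory CD4+, naive CD8+ and memory CD8+ cells 0 domains passed. Unadjusted p by limma was under 0.05 in 92, 40, 39 and 34 domains, and in 1431, 784, 718 and 1193 of all regions. Of all regions 0%, 0%, 0.0164% and 0% passed. The share of all regions is not given here for fits that left out 1 library. The within-population count of domains for memory CD8+ cells was 25 without the library before treatment of animal 2, and 0 or 1 without any other library. In naive CD8+ cells it was 1 without the library after treatment of either animal or before treatment of animal 2.

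The domains nearest to passing show the size of the change. At chr4:65034646-65042454 libraries after treatment covered 1322 to 5604 bp (median 3341 bp) and libraries before it 2853 to 6537 bp (median 4396 bp). The log2 difference was −0.59 ± 0.11 (SE; limma, adjusted p = 0.32), and the groups overlapped. At chr3:88955090-88963957 the values were 4095 to 5611 bp after (median 4772 bp) and 5197 to 7453 bp before (median 6317 bp), a log2 difference of −0.40 ± 0.08 (SE; limma, adjusted p = 0.32). The third, chr1:146412135-146421313, had a log2 difference of −0.23. In the direction of more bases after treatment the smallest p values were at chr11:52607333-52617160, chr14:64945581-64955358 and chr9:65714372-65724616, with log2 differences of 0.19, 0.20 and 0.13 (limma, adjusted p = 0.49, 0.50 and 0.53). Covered bases after treatment did not overlap those before in 1 domain, 0.0859% against 0.0205% of regions open throughout.

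The rank of a domain within its list gave a second view. Lists were shortened to their 36307 peaks of highest area score, since ranks from lists of unequal length are not directly comparable. The rank of a domain's best peak was then compared with limma over 22723 regions, of which 1162 were domains. By state 499 domains differed (42.9%), against 36.8% of all regions tested, 334 with the higher rank in memory (28.7%, against 16.1%) and 165 in naive cells (14.2%, against 20.7%). By lineage 271 differed (23.3%), against 22.2%, 102 higher in CD8+ (8.78%, against 9.55%) and 169 in CD4+ cells (14.5%, against 12.6%). The lineage share was near the background. Of the domains called by state, 267 were called in 1 direction by both covered bases and rank, 3 in opposite directions, 105 by covered bases alone and 229 by rank alone. For lineage these counts were 104, 0, 57 and 167. Without both naive CD8+ libraries of animal 1, 407 of the 499 state calls by rank and 191 of the 271 lineage calls remained. Area sums along the peak, so both measures share the peak's length. Ranked by summit −log10 p instead, 264 domains were called by state (22.7%, against 22.9% of all regions tested) and 143 by lineage (12.3%, against 14%), so neither share was above the background. Of the 499 state calls 169 remained, and 95 had the opposite sign.

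The rank percentile of chr16:36954141-36961884 was 94.1 to 99.4 in memory libraries (median 97.9) and 50.4 to 85.5 in naive libraries (median 65.3). That of chr14:8966751-8974800 was 60.9 to 76.4 in memory (median 65.3) and 95.7 to 98.9 in naive libraries (median 98.1). By lineage chr13:19069980-19076811 stood at 97.7 to 99.2 in CD8+ (median 98.3) and 35.9 to 68.0 in CD4+ libraries (median 58.4). None of these groups overlapped, and the adjusted p by limma was 1.3e-07, 7.1e-07 and 4.9e-08. For chr14:8966751-8974800 the direction did not hold by summit −log10 p, where its difference in normal score was 0.0115.

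Other domains led with a higher rank in memory cells at chr17:4085219-4093410 (median percentile 99.0 against 85.7) and chr16:20457042-20463044 (99.3 against 93.8). In naive cells the rank was higher at chr16:40217670-40225582 (median percentile 80.9 in memory against 98.5 in naive). At chr12:106326438-106333919 the medians were 94.5 in memory and 97.7 in naive cells, and the groups overlapped. Naive CD4+ libraries stood at 99.4 to 99.6 there and memory CD4+ libraries at 94.1 to 94.7. Naive CD8+ libraries, at 95.4 to 95.9, lay within the memory CD8+ range of 92.1 to 96.7. In CD8+ cells chr1:199774088-199780844 stood at a median of 97.3 against 69.5 in CD4+ cells. At chr2:144400764-144409756 the medians were 89.99 in CD8+ and 72.0 in CD4+ cells, with overlap of the lineages. There memory CD8+ libraries stood at 98.7 to 99.3, naive CD8+ libraries at 72.2 to 81.3 and CD4+ libraries at 66.8 to 74.8. CD4+ cells were higher at chr9:103181526-103192688 (68.8 in CD8+ against 97.3 in CD4+) and chr9:103133683-103140326 (93.6 against 99.1). At chr17:81016530-81040381 the medians were 89.2 in CD8+ and 99.5 in CD4+ cells, and the lineages overlapped. Naive CD8+ libraries stood at 72.0 to 79.1 there, memory CD8+ libraries at 99.3 to 99.7 and CD4+ libraries at 97.9 to 99.8. By summit −log10 p the call at chr17:4085219-4093410 was lost, with a difference in normal score of 0.18 (limma, adjusted p = 0.41), and the sign turned at chr16:20457042-20463044, chr12:106326438-106333919 and chr17:81016530-81040381.

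By time 2 domains differed in rank (0.172%), against 0.0352% of all regions tested, both lower after treatment. At chr14:21178517-21185385 memory CD4+ libraries stood at the 99.1 and 98.9th percentile before and the 93.0 and 93.7th after, and memory CD8+ libraries at 99.1 and 98.4 before and 89.4 and 88.9 after. Naive libraries were at 86.3 to 90.7 at both times. The difference in normal score was −0.47 ± 0.04 (SE; limma, adjusted p = 0.00095). At chr11:104457874-104464826 memory CD8+ libraries stood at 91.1 and 94.0 before and 72.3 and 73.3 after, and the other 12 libraries at 59.0 to 66.5. That call (limma, adjusted p = 0.026) was lost in 11 of the 16 fits that left out 1 library. By summit −log10 p neither domain was called. The rank was that of the best peak alone. At chr14:21178517-21185385 each memory library had 1 peak before and 2 after, covering 6132 to 6514 bp before and 5548 to 6283 bp after. Naive libraries had 2 peaks there at both times. At chr11:104457874-104464826 memory CD8+ libraries had 2 and 1 peaks before and 3 each after. Whether splitting of peaks gave the lower ranks was not tested. For the fits that left out 1 library, domains are counted here without the share of all regions. The count by time was 20 without memory CD8+ before treatment of animal 1, 7 without that of animal 2, 4 without naive CD4+ before treatment of animal 2, and 1 without any of 9 other libraries: naive CD4+ after treatment, memory CD4+ after treatment and naive CD8+ after treatment of either animal, memory CD4+ before treatment of either animal, and memory CD8+ after treatment of animal 2.

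Whether a domain was 1 peak or several was compared with Fisher's exact test, two-sided, over 1695 regions that were a single peak in 5 to 11 libraries, 281 of them domains. By state 10 domains differed (3.56%), against 2.89% of regions tested, and the share was near the background. Memory cells had the single peak in 4 and naive cells in 6. At chr16:20457042-20463044 and chr7:153385090-153391914 it was 1 peak in 8 of 8 memory libraries and several in 8 of 8 naive libraries (Fisher's exact test, adjusted p = 0.022). The reverse held at chr14:8966751-8974800, chr4:14509157-14515704 and chr19:4257819-4264087, with 1 peak in 8 of 8 naive and at least 2 in 8 of 8 memory libraries (Fisher's exact test, adjusted p = 0.022). In chr16:38459638-38477245, 17608 bp wide, 8 memory libraries and 1 naive library had a single peak (Fisher's exact test, adjusted p = 0.048). A single peak had different meanings here: at chr14:8966751-8974800 it was the broader state, and at chr19:4257819-4264087 the narrower one. With animals as strata (the replicate block) 0 domains passed, as without the filter on libraries, and the domains that split 8 against 8 then had an adjusted p of 0.0577 and 0.315 by the exact test. By lineage and by time 0 domains passed Fisher's exact test, and 0% of regions tested did. Unadjusted p by that test was under 0.05 in 29 and 6 of the 281 domains, and in 146 and 44 of the 1695 regions.

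Some stretches inside domains switched completely. A run of at least 200 bp covered in all 8 memory libraries and in no naive library was present in 46 domains (3.95%), against 0.686% of all regions open throughout. The reverse run was present in 14 domains (1.20%, against 0.242%). For lineage there were 7 domains with a CD8+ run (0.601%, against 0.119%) and 11 with a CD4+ run (0.945%, against 0.197%). No domain had such a run by time, in either direction. These shares rise with width, because a wider region has more room for a run, and they were not tested. Of the domains with a memory run, 9 had it between bases of the common core and the rest beyond the ends of the core.

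The longest memory run was chr1:94817050-94819165, 2116 bp within chr1:94809279-94834535, which held 6 such runs and 5265 bp in all. In naive cells the longest was chr14:8971130-8973276, 2147 bp in the middle of chr14:8966751-8974800, between core bases on both sides. A CD8+ run of 1459 bp, chr13:19070979-19072437, lay in chr13:19069980-19076811. A CD4+ run of 2046 bp, chr1:96020719-96022764, lay in chr1:96019001-96036800. Split by population, 42 domains (3.61%, against 0.781% of regions open throughout) had a run covered in the 4 memory CD8+ libraries and in none of the other 12. Runs of memory CD4+ cells alone were present in 9 domains (0.773%, against 0.168%), of naive CD4+ cells alone in 7 (0.601%, against 0.0699%) and of naive CD8+ cells alone in 5 (0.430%, against 0.0822%). Runs covered in the other 12 libraries and in none of the 4 naive CD8+ libraries were present in 29 domains (2.49%, against 0.436%), and runs missing in this way in memory CD8+ cells in 23 (1.98%, against 0.547%). Runs missing in naive CD4+ cells were present in 7 domains (0.601%, against 0.123%) and runs missing in memory CD4+ cells in 5 (0.430%, against 0.0616%). The longest of the runs missing in naive CD8+ cells was 2067 bp, at chr6:54651051-54653117, within chr6:54648068-54654510. In chr16:49109623-49119661 a run of 1661 bp, chr16:49115580-49117240, was covered in memory CD8+ cells alone.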

How the data were processed

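ATAC-seq libraries of 4 sorted T cell populations from 2 rhesus macaques, before and after 2-hydroxypropyl-beta-cyclodextrin, gave 16 deposited peak lists, 1 per library and not pooled. Genrich 0.6, Bowtie2 2.3.4.1, cutadapt 1.18 and the build rheMac10 are named in the submitters' processing notes, with settings, read shifting and duplicate removal not given in the sources used here. Each deposited list gives peak positions, an area score from the authors' caller (lowest value 200.0) and, as deposited by the authors, the −log10 p at the summit (2.42 to 16.3). Both values belong to their own list and served to rank or filter its peaks, nothing else. Read counts were not used here, so depth and its counting error are unknown.

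Peaks sharing at least 1 bp were merged. Bases covered by a library's peaks in each region open in all 16 libraries were compared on the log2 scale with limma 3.58.1 in R 4.3.3 (8 group means, moderated variance with a trend, contrasts of groups, Benjamini-Hochberg adjustment over 24333 regions). Ranks of area score were turned into normal scores in lists of 36307 peaks and fitted in the same way. Single against several peaks was tested with Fisher's exact test (scipy 1.17.1), two-sided, over regions with 5 to 11 libraries of 1 peak. The limma and Fisher steps were tested on simulated data.

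Groups came from the labels and animals from the titles. Each animal gave every population at both times, which pairs the libraries. Deviations from group means correlated at 0.124 to 0.315 (median 0.210) over the 28 pairs of libraries within each animal. The fit without an animal term was used, with the animal as a block as an alternative.

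Domains named are up to 8 per direction by size among those called in covered bases and in the interaction (where none passed, the 3 of smallest p), up to 3 per direction among those called by rank or single peak, the 5 widest, the 5 of largest core, the 3 with most peaks and the 3 on each side of 6000 bp. Domains named for a run were the longest of their kind. Members and lists were chosen with earlier results of these data known. Alternatives were equal-length lists, peaks of area score of at least 400, centring, a linear scale, 200 bp overlap for merging, widths of 5000 and 8000 bp, autosomes only, single animals, and leaving out each library. Fits of single animals held terms for state, lineage, time and state by lineage in place of group means. Their p-values measure the spread between libraries of 1 animal. A fit without both naive CD8+ libraries of animal 1, and centring with the block, were chosen after seeing the data. Genes and sequences are not given, since no genome or annotation of rheMac10 was used here.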

Additional observations from a re-analysis of the deposited data

Results flagged for a closer look

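The state difference in covered bases itself differed between CD8+ and CD4+ cells in 14 domains by limma's interaction term (adjusted p under 0.05). The differences of log2 differences in the 8 named domains were 2.12 at chr16:36954141-36961884, 2.10 at chr6:54648068-54654510, 1.58 at chr6:146333189-146340878 and 1.46 at chr1:209497631-209507638. They were 1.23 at chr19:18055180-18061291, 0.95 at chr3:11548590-11554745, 0.85 at chr2:20016267-20023139 and 0.83 at chr1:132293372-132299515. In animal 1 alone 0 of these were called, and in animal 2 alone 6 domains were called in all. Of 20 library measures examined within groups of 4, 0 had a library far from the other 3.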

How the results depend on the processing

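No comparison of covered bases, rank or single peaks turned its main direction, but counts moved. Counts in this section are of domains alone, so they do not show whether all regions moved in the same way. Leaving out 1 library at a time gave 302 to 480 domains for state, 120 to 255 for lineage, 8 to 41 for state by lineage and 0 to 0 for time. Within populations time gave 0 to 25 domains in memory CD8+ (25 without the library before treatment of animal 2), 0 to 1 in naive CD8+ and 0 to 0 in both CD4+ populations. By rank the ranges were 418 to 547, 229 to 325 and 1 to 20 for state, lineage and time, and by single peak 10 to 15, 0 to 0 and 0 to 0.

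With the replicate block 438 domains were called for state, 224 for lineage, 16 for state by lineage and 0 for time, and 1 by time in memory CD8+ cells. By rank the block gave 565, 340 and 3, and by single peak it gave 0 for state, 0 for lineage and 0 for time. It moved no count past 1.5 times except those for single peaks by state and for time in memory CD8+ cells. Centring with the block gave 242 for lineage, 29 for state by lineage and 1 for time in memory CD8+ cells.

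Centring alone gave 23 domains for state by lineage and 1 for time in memory CD8+ cells, which was also 1 on a linear scale and 1 without both naive CD8+ libraries of animal 1. Peaks of area score of at least 400 gave 1 for time in naive CD8+ cells and 6 for single peaks by state. Single peaks by state came to 5 with merging at 200 bp and 0 without the filter on libraries. Animal 1 alone gave 143 for state, 86 for lineage and 0 for state by lineage, and animal 2 alone 6 for the last; fewer libraries enter these fits. A width of 5000 bp gave 599, 280 and 22 calls and one of 8000 bp 159, 75 and 4, with more and fewer domains. By summit −log10 p rank gave 264, 143 and 0 calls, and whole lists 1 for time. There the difference in normal score turned to −0.19 at chr16:20457042-20463044, 0.0115 at chr14:8966751-8974800 and 0.20 at chr12:106326438-106333919 for state, and 0.14 at chr17:81016530-81040381 for lineage. The cause was not tested. Depth being unknown, a broader domain cannot be told apart from a more deeply sequenced library, except as far as centring bears on it.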

Other observations

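On chromosome 9 a chain of 3 domains and a further domain 51828 bp downstream, just beyond the 50 kb used for chains, were looked at after the values above were seen. At chr9:103133683-103140326 and chr9:103181526-103192688 covered bases were lower in CD8+ than in CD4+ cells, with log2 differences of −0.53 and −1.55 (limma, adjusted p = 0.0094 and 0.00048), and state did not pass in either (adjusted p = 0.60 and 0.20). Between them lay chr9:103166338-103179571, 13234 bp wide with a core of 10028 bp, which passed neither comparison. Its log2 differences were 0.05 for state and −0.12 for lineage (limma, adjusted p = 0.29 and 0.056). The domain beyond the chain, chr9:103244517-103251537, was broader in memory cells, with a log2 difference of 1.10 (limma, adjusted p = 1.6e-05), and its lineage difference was 0.05 (adjusted p = 0.81). A run of 1453 bp in that domain, chr9:103246704-103248156, was covered in 8 of 8 memory and 0 of 8 naive libraries.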
